A study of Mus musculus with 9 samples.

Results

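The SLC25 family of mitochondrial carriers was followed through 6 h of activation of mouse CD8 T cells with and without 2-hydroxyglutarate. Its members were taken as the genes of the count table whose symbol is Slc25a followed by digits and whose biotype is protein coding, which gave 47 of 55011 genes. All 47 carriers had at least 1 count, 35 had enough counts to be tested, and 12 did not. Naive CD8 T cells, lymphocytes able to kill infected cells, came from spleens of wild-type mice. Every group was stimulated for 6 h in the same medium by plate-bound antibodies against CD3 and CD28 (4 µg/mL), so that no group is unstimulated. The control group received nothing more. One treated group had D-2HG at 20 mM and the other had L-2HG at 20 mM, each present since stimulation began. There were 3 libraries in each group, 9 in total. The compounds are mirror images of 2-hydroxyglutarate, the reduced relative of 2-oxoglutarate. Tumours with mutant isocitrate dehydrogenase accumulate the D form.

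The inner mitochondrial membrane lets few solutes through, and most metabolites cross it on a carrier of this family, usually by exchange of one solute for another. ADP/ATP translocases bring ADP in and ATP out, the phosphate carrier supplies phosphate to ATP synthase, and carboxylate carriers move citrate, malate and 2-oxoglutarate between the matrix and the cytosol. Citrate exported on Slc25a1 feeds fatty acid synthesis, the 2-oxoglutarate carrier Slc25a11 and the aspartate/glutamate carriers form the malate-aspartate shuttle, and loss of the citrate carrier in people causes an aciduria in which both forms of 2-hydroxyglutarate build up. Activated T cells enlarge their mitochondria and raise the use of glucose and glutamine, so that this traffic is part of their growth.

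Gene counts per library ran from 562627 in L-2HG replicate 2 to 5731885 in control replicate 3, and the carriers took 1883 to 32128 of them. The 7 CD8 T cell markers checked were all detected, with a sum of 2264 to 4858 CPM (scaled counts-per-million) over the libraries. With D-2HG 4 of the 7 were lower and 1 was higher, against 10.5% lower and 11.8% higher over all genes tested. With L-2HG 1 of the 7, the T cell receptor gene Trac, was lower, against 8.3% of all genes. The 3 CD4 T cell markers together reached 9.69 to 16.8 CPM, and the 3 NK cell markers at most 4.82 CPM. The 5 B cell markers summed to 175 to 317 CPM in controls, 133.6 to 134.5 with D-2HG and 133.8 to 194.6 with L-2HG, nearly all of it from Ighm, which was lower with both compounds. None of these lists was at 0 throughout. Reads of the satellite-like predicted genes Gm10800 and Gm10801 made up 0.910 to 5.35% of counts in controls, 3.79 to 17.0% with D-2HG and 6.71 to 24.4% with L-2HG. Reads in sensory receptor genes, which T cells are not known to express, were few but rose in the same order, from 0.0207 to 0.0825% in controls to 0.0745 to 0.112% with D-2HG and 0.125 to 0.325% with L-2HG. Transcripts encoded by mitochondrial DNA made up 2.23 to 3.06% of counts in controls, 0.992 to 1.87% with D-2HG and 1.19 to 1.83% with L-2HG. Of the 4 dendritic cell markers, Zbtb46 was higher with L-2HG (1.10 on the log2 scale), while Xcr1 differed by -0.21 and did not pass. The other markers of that list, Flt3 and Siglech, were too low to test. The nuclear RNAs Neat1 (0.90 and 0.97) and Kcnq1ot1 (0.91 and 0.75) were higher with both compounds. The part of the cell type markers and of these transcripts in the results was not tested. Separate mice or cultures are not stated for the replicates, so that p-values measure the spread between these libraries, which may be technical. These are bulk libraries, in which fewer cells of a type and less RNA per cell cannot be told apart.

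In untreated activated cells the carriers spanned more than 3 orders of magnitude, and 1 gene dominated. Per length, as CPM per kilobase of exon (RPKM), the ADP/ATP translocase Slc25a5 stood first at 1721 ± 418 RPKM (SD, n = 3) and held 70.3% of the summed RPKM of the carriers. The phosphate carrier Slc25a3 came next at 255 ± 38.1 RPKM, followed by the second ADP/ATP translocase Slc25a4 at 105 ± 27.3 RPKM. The range of each of the first 2 lay wholly above that of the next. The ranges of Slc25a4 and the glutathione carrier Slc25a39, at 73.8 ± 9.43 RPKM, overlapped, although Slc25a4 was the higher within each library. The citrate carrier Slc25a1 had 47.5 ± 5.85 RPKM, the 2-oxoglutarate carrier Slc25a11 had 41.1 ± 8.29 RPKM and the peroxisomal cofactor carrier Slc25a17 had 33.9 ± 6.09 RPKM. The ranges of neighbours among these 3 overlapped, although Slc25a11 was above Slc25a17 within each library. Below them came the folate and FAD carrier Slc25a32 (21.99 ± 4.41 RPKM), the carnitine/acylcarnitine carrier Slc25a20 (21.3 ± 5.82 RPKM) and the glutamate carrier Slc25a22 (12.7 ± 1.13 RPKM). Slc25a32 and Slc25a20 overlapped, and both lay above Slc25a22 in every library. The other carriers described here had means under 10 RPKM. The highest iron carrier was Slc25a37, mitoferrin-1, at 8.65 ± 1.78 RPKM, and its relative Slc25a28 had 1.81 ± 0.528 RPKM.

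**Figure D1:**
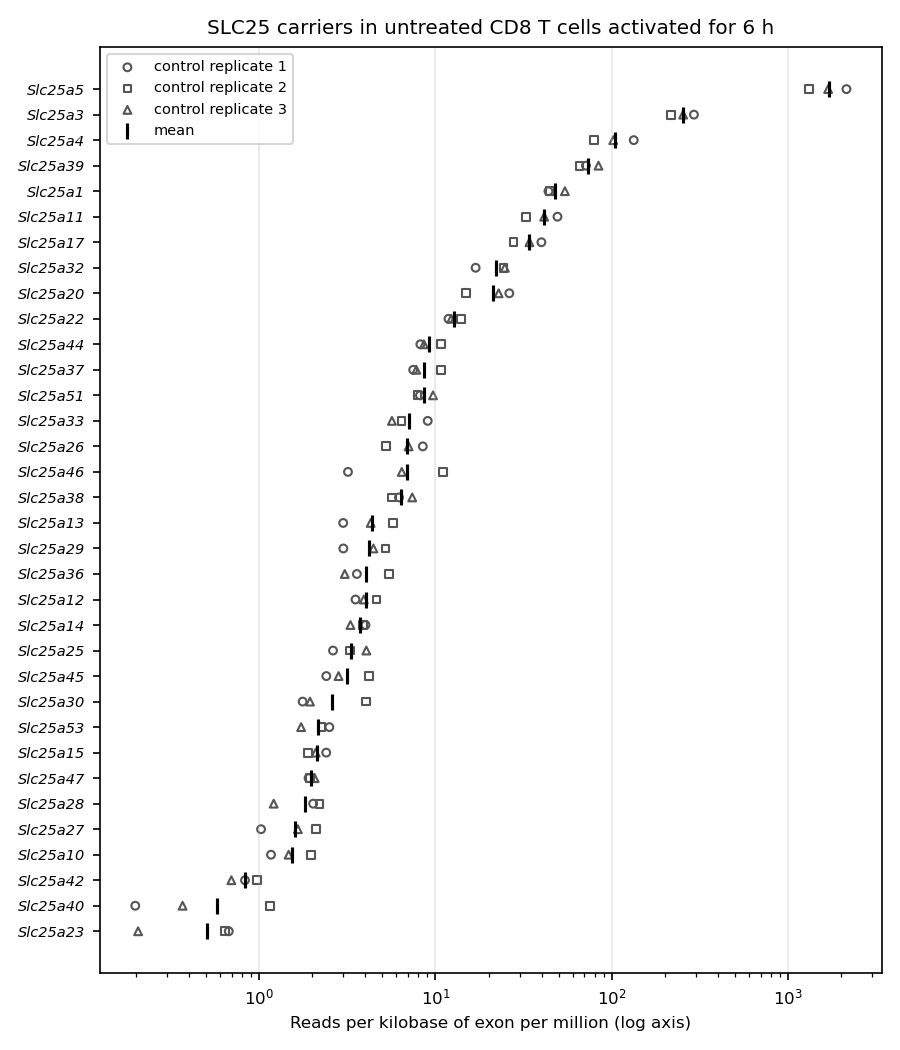
Levels of 34 tested carriers in the 3 control libraries, in RPKM on a log axis; open symbols are libraries and the bar is the mean. Slc25a5 has a mean of 1721 and the lowest tested carrier, Slc25a23, below 1.

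The 12 carriers too low for a test were Slc25a2, Slc25a16, Slc25a18, Slc25a21, Slc25a24, Slc25a31, Slc25a34, Slc25a35, Slc25a41, Slc25a43, Slc25a48 and Slc25a54, with 5 to 50 counts each over the 9 libraries together. Slc25a21, which carries 2-oxoglutarate and its longer relative oxoadipate, had 14 counts in all, where the read density in sensory receptor genes would give 20.9 by itself. The germ-cell ADP/ATP translocase Slc25a31 had 5 counts against 9.11 from that density. The same density predicted 20.6 of the 50 counts of Slc25a16, 15.7 of the 45 counts of Slc25a35 and 5.86 of the 35 counts of Slc25a2, an ornithine carrier, and these 3 were the furthest above it. Among tested carriers the predicted share was 0.0120% of counts for Slc25a5 and 0.322% for Slc25a1, but 23.9% for the calcium-regulated ATP-Mg/phosphate carrier Slc25a23 and 29.9% for Slc25a40.

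With D-2HG, 4 of 35 tested carriers passed edgeR's quasi-likelihood test at an adjusted p under 0.05, of which 2 were higher and 2 lower. That is 11.4% of the carriers, against 22.3% of all 10235 genes tested (11.8% higher, 10.5% lower), so the share called was below the background. Both ADP/ATP translocases, Slc25a4 and Slc25a5, were lower, and the pyrimidine nucleotide carrier Slc25a36 and the uncoupling protein relative Slc25a30 were higher. The median log2 fold change was -0.02 over the tested carriers and 0.04 over all genes, and CPM ranges of control and D-2HG did not overlap for 12 of 35 carriers, against 40% of all genes. With L-2HG, also 4 of 35 carriers passed (11.4%), against a background of 17.7% (9.41% higher, 8.3% lower). Among these Slc25a36 was higher, and Slc25a4 and Slc25a5 were lower. The carriers' median was -0.01 against 0.05 over all genes, and ranges did not overlap for 7 of 35, against 31.2% of all genes. Both comparisons use the same 3 control libraries, so their values are given side by side and one is not evidence for the other.

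**Figure D2:**
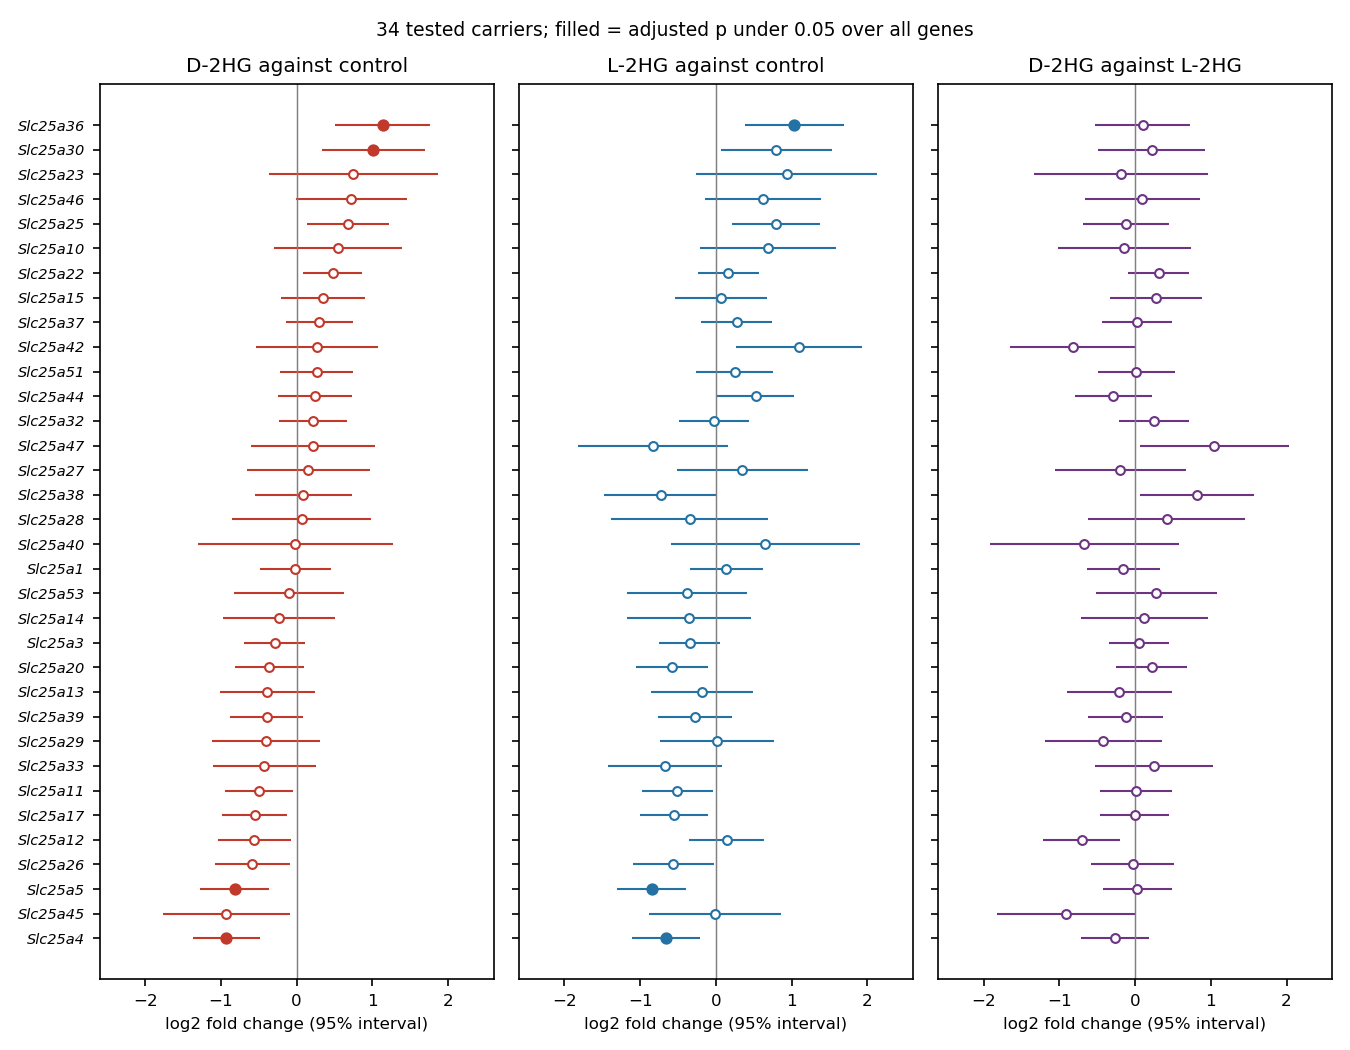
Log2 fold changes of 34 tested carriers with their 95% intervals from edgeR, ordered by the change with D-2HG; filled points passed an adjusted p under 0.05 over all genes tested. Slc25a36 and Slc25a30 are filled at the top and Slc25a5 and Slc25a4 near the bottom with D-2HG, and no point is filled for D-2HG against L-2HG.

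The ADP/ATP translocases exchange the ATP made in the matrix for cytosolic ADP and are the most abundant proteins of the inner membrane in many tissues. Slc25a5 (ENSMUSG00000016319) lies on chromosome X from 36795651 to 36798807 on the plus strand, and Slc25a4 (ENSMUSG00000031633) on chromosome 8 from 46206797 to 46211284 on the minus strand, both in mm10. Promoter windows are the 250 bases before the RefSeq start on GRCm38.p6, which is not the same as the start of the gene bounds given here, from GENCODE M21. That of Slc25a5, chrX:36795347-36795596 on the plus strand, ends 54 bases before the GENCODE gene. That of Slc25a4, chr8:46211063-46211312 on the minus strand, has 222 of its 250 bases inside the GENCODE gene, and its letters are not printed. The window of Slc25a5 is shown because it was the most abundant carrier and lower with each compound, written 5′ to 3′ with motif matches in capitals.
Slc25a5: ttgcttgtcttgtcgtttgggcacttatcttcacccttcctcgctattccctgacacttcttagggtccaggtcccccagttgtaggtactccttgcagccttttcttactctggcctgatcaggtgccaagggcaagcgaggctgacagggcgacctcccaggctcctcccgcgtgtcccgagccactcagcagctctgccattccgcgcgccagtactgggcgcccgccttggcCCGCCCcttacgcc
The motifs searched on both strands were the E-box CACGTG, the NRF1 box TGCGCA, the CREB site TGACGTCA, the ETS site CCGGAAGT, the SP1 box GGGCGG, the ERR site AAGGTCA, the box TATAAA, the box CCAAT and the STAT5 site TTCNNNGAA. Slc25a4 held 2 CCAAT boxes, both inside the GENCODE gene, which 34.5% of 27025 promoters also hold at least once, and Slc25a5 held 1 SP1 box (as CCGCCC), found in 32.9% of promoters. No motif was shared by the pair, and a match here is a description of letters only. Neither window held the NRF1 box (6.66% of promoters), the ERR site (4.05%) or the E-box (6.05%).

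Slc25a5 was measured at 3541, 2168 and 2787 CPM in control replicates 1, 2 and 3, at 1644, 1575 and 1594 CPM with D-2HG and at 1608, 1238 and 1863 CPM with L-2HG. All 6 treated libraries lay below all 3 controls, and the D-2HG libraries lay close together. The mean fell to 0.566 times the control with D-2HG (log2 fold change -0.82, SE 0.22, edgeR adjusted p = 0.0167) and to 0.555 times with L-2HG (-0.85, SE 0.22, adjusted p = 0.0194). Slc25a4 was measured at 314, 186 and 240.3 CPM in controls, at 136, 132 and 121.5 CPM with D-2HG and at 167, 120.4 and 175 CPM with L-2HG. Again no treated library reached the lowest control, replicate 2. The change was -0.93 with D-2HG (SE 0.21, adjusted p = 0.00813), the smallest p of any carrier, and -0.66 with L-2HG (SE 0.21, adjusted p = 0.0412).

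Per length, Slc25a5 stood at 16.1 to 16.7 times Slc25a4 in controls, 17.1 to 18.8 times with D-2HG and 13.8 to 15.2 times with L-2HG. While both translocases fell, their ratio was above that of controls with D-2HG and below it with L-2HG, in narrow ranges that did not overlap between groups. An exact two-sided permutation test gave p = 0.1 for each pair of groups, the smallest that 3 against 3 libraries can give. After adjustment over the 6 ratio tests made it was 0.12. Ranges that do not overlap fix this p in advance, so it adds nothing to the ranges. Ratios of other carrier pairs were computed and not tested, and the adjustment leaves them out. Slc25a5 took 48.2 ± 3.91% of carrier counts in controls, 38.1 ± 0.745% under D-2HG and 37.7 ± 3.85% under L-2HG (SD, n = 3). The carriers together summed to 4871 to 6771 CPM in controls, 4098 to 4334 CPM with D-2HG and 3717 to 4615 CPM with L-2HG. Without Slc25a5 and Slc25a3 the sum was 1499 to 1615 CPM, 1333 to 1544 CPM and 1421 to 1500.4 CPM in the same order, and the ranges overlapped. A processed copy, Slc25a5-ps, collected 0 to 5 counts per library, at most 0.0850% of those of Slc25a5, but how reads shared with such copies were assigned is not given in the sources used here.

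The phosphate carrier Slc25a3, the second most abundant carrier, did not pass either test. It was measured at 1627, 1204 and 1413 CPM in controls, at 1146, 1151 and 1171 CPM with D-2HG and at 1043, 1048 and 1252 CPM with L-2HG. The values with D-2HG lay under every control and those with L-2HG overlapped them, and the log2 fold changes were -0.29 (95% interval -0.69 to 0.11) and -0.34 (-0.75 to 0.06). Of the calcium-regulated ATP-Mg/phosphate carriers, which adjust the adenine nucleotide pool of the matrix, Slc25a25 had the most counts. It stood at 20.6, 25.7 and 31.85 CPM in controls, at 49.2, 43.4 and 32.5 CPM with D-2HG and at 30.7, 61.2 and 51.4 CPM with L-2HG. Its differences of 0.68 (edgeR adjusted p = 0.0658) and 0.80 (adjusted p = 0.0513) did not pass. In the group of adenine nucleotide and phosphate carriers, 2 of 5 tested members were thus lower with each compound and none was higher, against backgrounds of 10.5% lower with D-2HG and 8.3% with L-2HG. These 2 are the translocases already described.

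Cofactor and nucleotide carriers held the gene with the largest called rise. Slc25a36 (ENSMUSG00000032449, chromosome 9 from 97074961 to 97111157, minus strand) brings pyrimidine nucleotides into the matrix for the synthesis of mitochondrial RNA and DNA. It was measured at 34.3, 52.3 and 29.3 CPM in controls, at 75.7, 64.6 and 111.5 CPM with D-2HG and at 92.5, 104.6 and 44.2 CPM with L-2HG. All D-2HG libraries were above all controls, while L-2HG replicate 3 lay below control replicate 2. The rise was 2.20-fold with D-2HG (log2 fold change 1.14, SE 0.30, edgeR adjusted p = 0.0161) and 2.05-fold with L-2HG (1.04, SE 0.31, adjusted p = 0.0322). Slc25a30 (ENSMUSG00000022003, chromosome 14 from 75760117 to 75787037, minus strand), known as kidney mitochondrial carrier 1, is a relative of the uncoupling proteins. It was measured at 8.05, 18.4 and 8.87 CPM in controls, at 23.7, 21.7 and 22.1 CPM with D-2HG and at 23.4, 25.7 and 11.9 CPM with L-2HG. Control replicate 2 was well above the other controls, and L-2HG replicate 3 fell below it. The rise with D-2HG was 2.02-fold (1.01, SE 0.33, adjusted p = 0.0330), and the difference with L-2HG, 0.80 (SE 0.35, adjusted p = 0.108), did not pass.

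For the 2 carriers that were higher with D-2HG, the RefSeq windows lie on the minus strand. That of Slc25a30, chr14:75787038-75787287, ends where the GENCODE gene begins. That of Slc25a36, chr9:97111042-97111291, has 116 of its 250 bases inside the GENCODE gene, and only the 134 bases before that gene, chr9:97111158-97111291, are printed, with matches in capitals.
Slc25a36: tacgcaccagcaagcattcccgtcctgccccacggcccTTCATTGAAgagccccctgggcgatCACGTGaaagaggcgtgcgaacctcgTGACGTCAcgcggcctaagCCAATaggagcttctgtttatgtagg
Slc25a30: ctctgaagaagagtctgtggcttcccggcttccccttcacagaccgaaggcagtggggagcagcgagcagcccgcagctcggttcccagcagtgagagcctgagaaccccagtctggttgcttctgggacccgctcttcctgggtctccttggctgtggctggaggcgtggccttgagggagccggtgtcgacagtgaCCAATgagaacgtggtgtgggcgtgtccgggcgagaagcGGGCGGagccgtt
Slc25a36 held an E-box, a CREB site (1.62% of promoters), a STAT5 site (7.18%), an NRF1 box, a CCAAT box and an SP1 box, with no 2 matches overlapping. Its NRF1 and SP1 boxes lie inside the GENCODE gene. It was the only 1 of 36 carriers with a promoter entry to hold the CREB site, while 6 of 36 held an E-box, 4 of 36 an NRF1 box, 24 of 36 an SP1 box and 16 of 36 a CCAAT box. Slc25a30 held an SP1 box and a CCAAT box. The CCAAT box was therefore present in 3 of these 4 windows, among carriers that were lower and carriers that were higher.

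Slc25a33 also carries pyrimidine nucleotides into the matrix, as Slc25a36 does. It was measured at 17.1, 12.1 and 10.7 CPM in controls, at 7.91, 9.13 and 13.1 CPM with D-2HG and at 10.6, 5.92 and 6.66 CPM with L-2HG. Its log2 fold changes of -0.43 (95% interval -1.10 to 0.25) and -0.68 (-1.43 to 0.08) did not pass. Per length, Slc25a33 stood at 2.52, 1.18 and 1.85 times Slc25a36 in controls, at 0.532, 0.719 and 0.597 times with D-2HG and at 0.583, 0.288 and 0.765 times with L-2HG. Per length, Slc25a33 was thus the higher of the pair in every control and Slc25a36 in every treated library. That order rests on the exon lengths used, 1887 bases for Slc25a33 and 9594 for Slc25a36. In CPM, without the length correction, Slc25a36 was the higher in every library, controls included. The per-length ratio was chosen after its values were seen, and the exact permutation p was 0.1 for each compound, adjusted 0.12. Ranges that do not overlap fix that p in advance. The ratio of L-2HG replicate 2 rests on 3 counts of Slc25a33, and the ranges stay apart without that library.

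Slc25a17, which carries cofactors into peroxisomes, stood at 113.7, 79.0 and 97.2 CPM in controls, at 61.2, 66.2 and 70.9 CPM with D-2HG and at 62.15, 80.9 and 60.4 CPM with L-2HG. Its differences of -0.55 (adjusted p = 0.0566) and -0.55 (adjusted p = 0.0732) just missed the threshold. It was called lower with both compounds by DESeq2, by limma-voom, with DESeq2 size factors and without control replicate 2. With the satellite covariate it was called with neither compound. Slc25a32 (0.22 with D-2HG and -0.03 with L-2HG), Slc25a39 (-0.40 and -0.27) and the NAD carrier Slc25a51 (0.26 and 0.25) did not pass. The coenzyme A/ADP carrier Slc25a42, of low count, had the largest rise of any tested carrier with L-2HG. It stood at 4.97, 5.82 and 4.16 CPM in controls and at 12.1, 13.8 and 7.14 CPM with L-2HG. Its differences of 0.27 with D-2HG and 1.10 with L-2HG (edgeR adjusted p = 0.0590) did not pass. In this group 1 of 9 tested carriers, Slc25a36, was higher with each compound, against backgrounds of 11.8% and 9.41% higher.

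**Figure D3:**
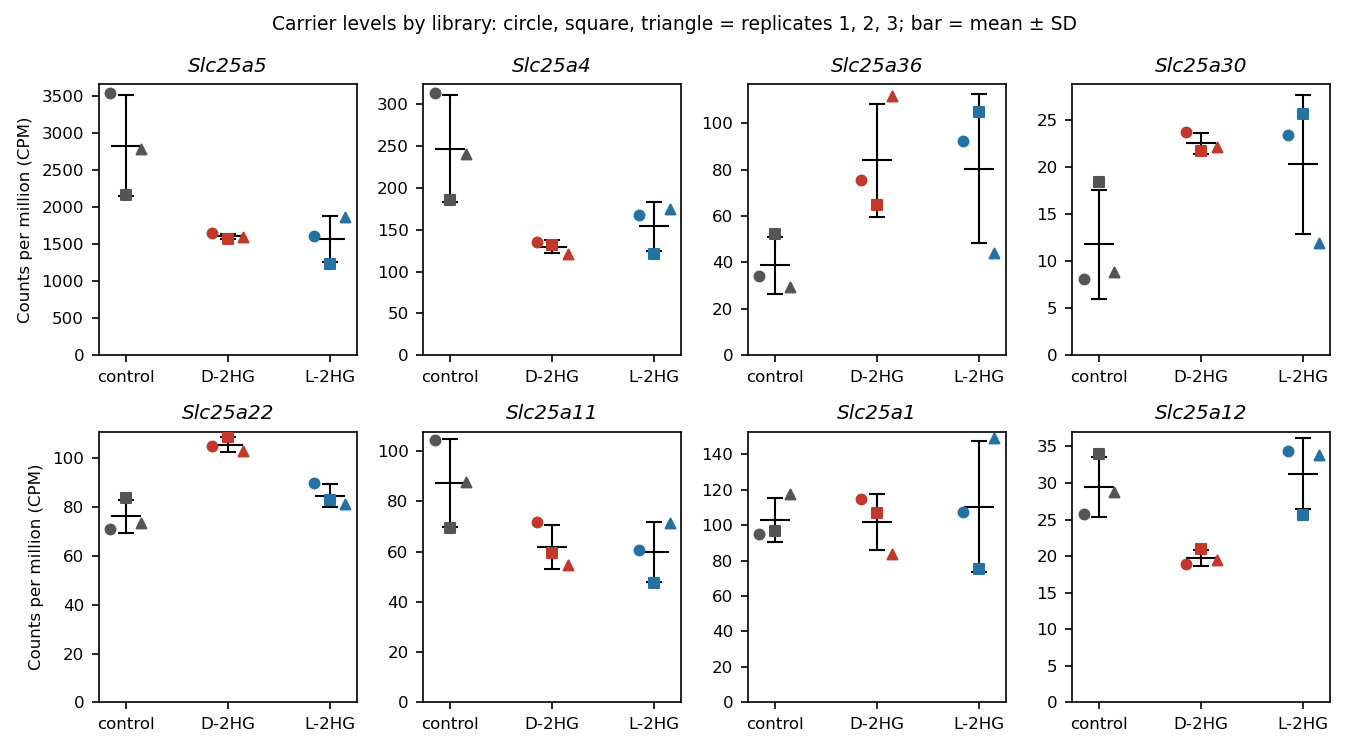
CPM of 8 carriers in each library (y axes from 0, on separate scales); symbols are replicates and bars give the mean ± SD of 3 libraries. Slc25a5 and Slc25a4 in all treated libraries lie below all controls, Slc25a36 lies above all controls with D-2HG, and Slc25a1 overlaps between groups.

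No carboxylate carrier passed a test with either compound. The citrate carrier Slc25a1 was measured at 94.7, 96.4 and 117.5 CPM in controls, at 114.6, 106.6 and 84.0 CPM with D-2HG and at 107.5, 75.0 and 148.9 CPM with L-2HG. The groups overlapped, with log2 fold changes of -0.02 (95% interval -0.48 to 0.45) for D-2HG and 0.14 (-0.34 to 0.62) for L-2HG. The 2-oxoglutarate carrier Slc25a11 was measured at 104.4, 69.3 and 87.8 CPM in controls, at 71.6, 59.4 and 54.6 CPM with D-2HG and at 60.7, 47.4 and 71.35 CPM with L-2HG. The highest treated library of each group lay above control replicate 2 and below the other controls. The differences were -0.50 (-0.95 to -0.05, edgeR adjusted p = 0.0955) and -0.51 (-0.98 to -0.04, adjusted p = 0.107), under the unadjusted but not the adjusted threshold. Its exons overlap those of Rnf167 on the other strand over 189 bases. The dicarboxylate carrier Slc25a10, which exchanges malate or succinate for phosphate, was low in all libraries, from 3.95 to 10.5 CPM, and its differences of 0.55 (SE 0.40) and 0.69 (SE 0.43) did not pass.

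None of 9 tested amino acid and acylcarnitine carriers passed with either compound. In each comparison 3 of the 9 had an unadjusted p under 0.05. Of all 10235 genes tested, 3960 did so with D-2HG and 3771 with L-2HG. Slc25a12, the calcium-regulated aspartate/glutamate carrier of the malate-aspartate shuttle, stood at 25.8, 33.9 and 28.8 CPM in controls, at 18.9, 21.0 and 19.4 CPM with D-2HG and at 34.4, 25.7 and 33.8 CPM with L-2HG. The D-2HG libraries lay below all libraries of the other groups. Its log2 fold change was -0.56 with D-2HG (SE 0.23, edgeR adjusted p = 0.0803) and 0.14 with L-2HG (SE 0.24, adjusted p = 0.688). Its relative Slc25a13 was at -0.39 and -0.18. The glutamate carrier Slc25a22 stood at 71.0, 83.8 and 73.7 CPM in controls, at 104.9, 108.9 and 102.9 CPM with D-2HG and at 89.9, 82.9 and 81.3 CPM with L-2HG, with differences of 0.48 (adjusted p = 0.0685) and 0.16 (adjusted p = 0.564). Slc25a20, which brings acylcarnitines in for fatty acid oxidation, differed by -0.36 and -0.58 (adjusted p = 0.225 and 0.0748), and the ornithine carrier Slc25a15 by 0.35 and 0.07. The S-adenosylmethionine carrier Slc25a26, which supplies the methyl donor of the matrix, differed by -0.59 and -0.56 (adjusted p = 0.0765 and 0.118). The mitoferrins Slc25a37 (0.30 and 0.27) and Slc25a28 (0.07 and -0.35) did not pass. Among the less defined carriers the best expressed was Slc25a46, an outer membrane protein, at 17.3, 59.6 and 34.9 CPM in controls, and its differences of 0.72 and 0.62 did not pass.

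Between the enantiomers, which were given at the same dose and time, 0 of 35 carriers passed edgeR's test, against 0.303% of all genes. DESeq2 and limma-voom also called 0 carriers. In edgeR 4 of 35 carriers had an unadjusted p under 0.05, as did 713 of all 10235 genes tested. This is the only pair of compounds in the series, and p-values were adjusted over all genes tested. Among carriers that passed against the control, the difference of D-2HG from L-2HG was 0.03 for Slc25a5 (95% interval -0.43 to 0.49), -0.27 for Slc25a4 (-0.72 to 0.18), 0.10 for Slc25a36 (-0.53 to 0.73) and 0.22 for Slc25a30 (-0.48 to 0.92). These intervals leave room for differences of about that size between the forms, so they do not show that the forms act alike. The citrate and 2-oxoglutarate carriers differed by -0.15 (-0.63 to 0.32) and 0.01 (-0.46 to 0.49). The 4 carriers under the unadjusted threshold were Slc25a12 (-0.70, interval -1.21 to -0.20, adjusted p = 0.461), Slc25a38 (0.82, adjusted p = 0.68), a glycine carrier needed for haem synthesis, Slc25a45 (-0.91, adjusted p = 0.714) and Slc25a47 (1.05, adjusted p = 0.687). CPM ranges of the forms did not overlap for 5 of 35 carriers, against 15.9% of all genes.

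The calls against control depended on single libraries. With D-2HG, Slc25a4 passed in 8 of 9 fits that left out 1 library, Slc25a36 in 6, and Slc25a5 and Slc25a30 in 4 each. Without control replicate 1 no carrier passed (adjusted p = 0.0528 for Slc25a4, 0.0915 for Slc25a5, 0.0794 for Slc25a36 and 0.166 for Slc25a30). Only Slc25a4 passed without control replicate 3 or without D-2HG replicate 3, and Slc25a4 and Slc25a36 passed without D-2HG replicate 1 or 2. Without control replicate 2, the control of highest satellite share, 11 carriers passed, 4 higher and 7 lower. Without L-2HG replicate 2, 6 passed, 3 in each direction. The share of all genes called with D-2HG moved too, from 22.3% in the main fit. It was 39% without control replicate 2, 26.6% without L-2HG replicate 2, 4.18% without control replicate 1 and 3.56% without control replicate 3. With L-2HG, no carrier passed without control replicate 1, control replicate 3 or L-2HG replicate 2, only Slc25a25 passed without L-2HG replicate 1, and only Slc25a36 and Slc25a5 passed without D-2HG replicate 1 or 2. Without control replicate 2, 13 carriers passed with L-2HG, 5 higher and 8 lower, and 6 passed without L-2HG replicate 3. Of all genes, 37.7% and 20.3% were called in these 2 fits with L-2HG. The share was 1.64% without control replicate 1 and 0.603% without control replicate 3. The signs of the called changes stayed the same in all these fits.

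Satellite reads moved with these carriers in some libraries and not in others. Control replicate 2 had 5.35% satellite reads, against 1.43 and 0.910% in control replicates 1 and 3, and it was the lowest control in Slc25a5 and Slc25a4 and the highest in Slc25a36 and Slc25a30. Among D-2HG libraries, replicate 3 had 17.0% and the highest Slc25a36 and lowest Slc25a4, but Slc25a5 was lowest in replicate 2, which had the lowest satellite share (3.79%), and Slc25a30 was highest in replicate 1. Among L-2HG libraries replicate 2 had 24.4%, the lowest Slc25a5 and Slc25a4, and the highest Slc25a36 and Slc25a30. Control replicate 2 (5.35%) had 2168 CPM of Slc25a5 and D-2HG replicate 2 (3.79%) had 1575 CPM, and the same 2 libraries had 52.3 and 64.6 CPM of Slc25a36. These are single libraries with unequal shares, and their difference was not tested. With the log2 satellite share as a covariate, no carrier passed with either compound. The estimates with D-2HG were then -0.57 for Slc25a4 (adjusted p = 0.306), -0.50 for Slc25a5 (adjusted p = 0.391), 0.48 for Slc25a36 (adjusted p = 0.519) and 0.55 for Slc25a30 (adjusted p = 0.568), and 0.938% of all genes were called. Those with L-2HG were -0.23 for Slc25a4, -0.47 for Slc25a5 and 0.27 for Slc25a36, with adjusted p from 0.670 to 0.866. The satellite share itself differed between groups, so that its part and that of the compounds cannot be told apart in this design.

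**Figure D4:**
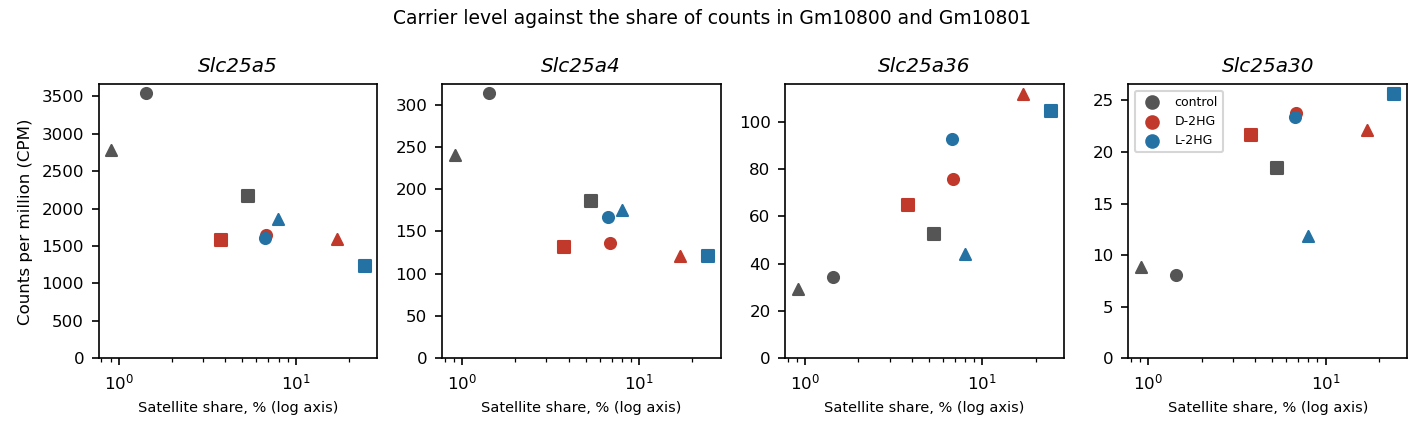
CPM of 4 carriers (linear y axis from 0) against the percentage of counts in Gm10800 and Gm10801 (log x axis) in the 9 libraries; colours are groups, and circle, square and triangle are replicates 1, 2 and 3. Control replicate 2, the grey square, lies at 5.35% and nearer to the treated libraries than the other controls do.

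Several genes of the machinery that brings carriers into the membrane were lower. Most carriers have no cleaved presequence and reach the inner membrane through the TOM complex, the small TIM chaperones and the TIM22 complex. Of 9 genes of this route, 5 were lower and 0 higher with D-2HG (background 10.5% lower), and 3 were lower with L-2HG (background 8.3%), with medians of -0.65 and -0.65. Timm22, the channel of the complex, was at 65.8 ± 19.05 CPM in controls, 29.9 ± 6.00 CPM under D-2HG and 39.2 ± 12.4 CPM under L-2HG (SD, n = 3), and fell by 1.14 on the log2 scale with D-2HG (edgeR adjusted p = 0.00813). With L-2HG it differed by -0.69 (adjusted p = 0.0705). The chaperones Timm8a1 (-0.89 and -0.92), Timm9 (-0.68 and -0.74) and Timm10 (-0.69 and -0.65) were lower with each compound, and Timm13 with D-2HG (-0.65). The acylglycerol kinase Agk, also a TIM22 subunit, was at 0.10 and 0.09. These counts too fell to 0 without control replicate 1 or with the satellite covariate, and to 1 of 9 with D-2HG without control replicate 3 or any 1 D-2HG library. With L-2HG the count was also 0 without control replicate 3, L-2HG replicate 1 or L-2HG replicate 2. Without control replicate 2 it was 7 with D-2HG and 6 with L-2HG, where 39% and 37.7% of all genes were called in either direction. Library totals in place of TMM, or subtraction of the background, gave 3 with D-2HG and 0 with L-2HG, and leaving out both libraries of highest satellite share gave 2 and 0.

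In the outer membrane, 1 of 10 channels and receptors was lower with D-2HG (Tomm7, a small TOM subunit, -0.89) and 3 with L-2HG (Tomm7 -0.93, Tomm5 -0.77 and the metabolite channel Vdac3 -0.72), with medians of -0.34 and -0.61. The share of all genes called lower was 10.5% with D-2HG and 8.3% with L-2HG, so the D-2HG count is near the background. Of 16 tested inner membrane transporters outside the family, 4 were lower with D-2HG and 1 with L-2HG, and the L-2HG count too is near the background. These were Sfxn3, a sideroflexin of the serine transporter family (-1.09), Smdt1, a subunit of the calcium uniporter (-0.85, and -0.77 with L-2HG), the pyruvate carrier subunit Mpc2 (-0.74) and the ABC transporter Abcb8 (-0.92). The other pyruvate carrier subunit Mpc1 differed by -0.64 (edgeR adjusted p = 0.0738) and -0.44. Ucp2, a carrier family protein under another symbol, stood at 597 ± 119 CPM in controls, 385 ± 16.9 CPM under D-2HG and 474 ± 88.0 CPM under L-2HG (SD, n = 3), and fell by 0.63 with D-2HG (adjusted p = 0.0317), while with L-2HG it differed by -0.33 (adjusted p = 0.238). Mtch2, an outer membrane relative, differed by -0.51 and -0.45 and did not pass. Over fits that left out 1 library, the outer membrane list had 0 to 6 lower calls with D-2HG and 0 to 7 with L-2HG, and the inner membrane list had 1 to 5 and 0 to 5, each with the most calls when control replicate 2 was left out. The call of Ucp2 with D-2HG was lost in 6 of these fits, namely without control replicate 1 or 3, any 1 D-2HG library or L-2HG replicate 1. With the satellite covariate no gene of either list was called, nor was Ucp2. With L-2HG neither list had a lower call with library totals, with background subtracted or with only the groups compared. With D-2HG the outer membrane list had 0 and the inner membrane list 2 with library totals.

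Of 10 tested enzymes of the malate-aspartate and citrate shuttles, which use the carriers' substrates, few passed. Their log2 fold change was below 0 for 9 with D-2HG and 8 with L-2HG (medians -0.26 and -0.35). Over all 10235 genes it was below 0 for 4941 with D-2HG and 4870 with L-2HG (medians 0.04 and 0.05). Acly, which splits exported citrate into acetyl-CoA, rose by 1.69 with D-2HG (SE 0.36, edgeR adjusted p = 0.00906) and 1.34 with L-2HG (SE 0.36, adjusted p = 0.0279), from 112 ± 62.7 CPM in controls to 358 ± 52.7 and 284 ± 116 CPM (SD, n = 3), while the citrate carrier that supplies it did not pass. The mitochondrial malate dehydrogenase Mdh2 fell by 0.77 with D-2HG and 0.84 with L-2HG (adjusted p = 0.0227 and 0.0212), and its cytosolic partner Mdh1 fell by 0.87 with D-2HG (adjusted p = 0.0196). In all, 1 of 10 tested shuttle enzymes was higher with each compound, and 2 were lower with D-2HG and 1 with L-2HG, against backgrounds of 11.8% and 9.41% higher and 10.5% and 8.3% lower. Acly passed with D-2HG in every fit that left out 1 library, whereas no enzyme was lower with D-2HG without control replicate 1, control replicate 3, D-2HG replicate 1 or D-2HG replicate 3. With L-2HG no enzyme passed without control replicate 1, control replicate 3, L-2HG replicate 1 or L-2HG replicate 2. With the satellite covariate none passed with either compound.

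**Figure D5:**
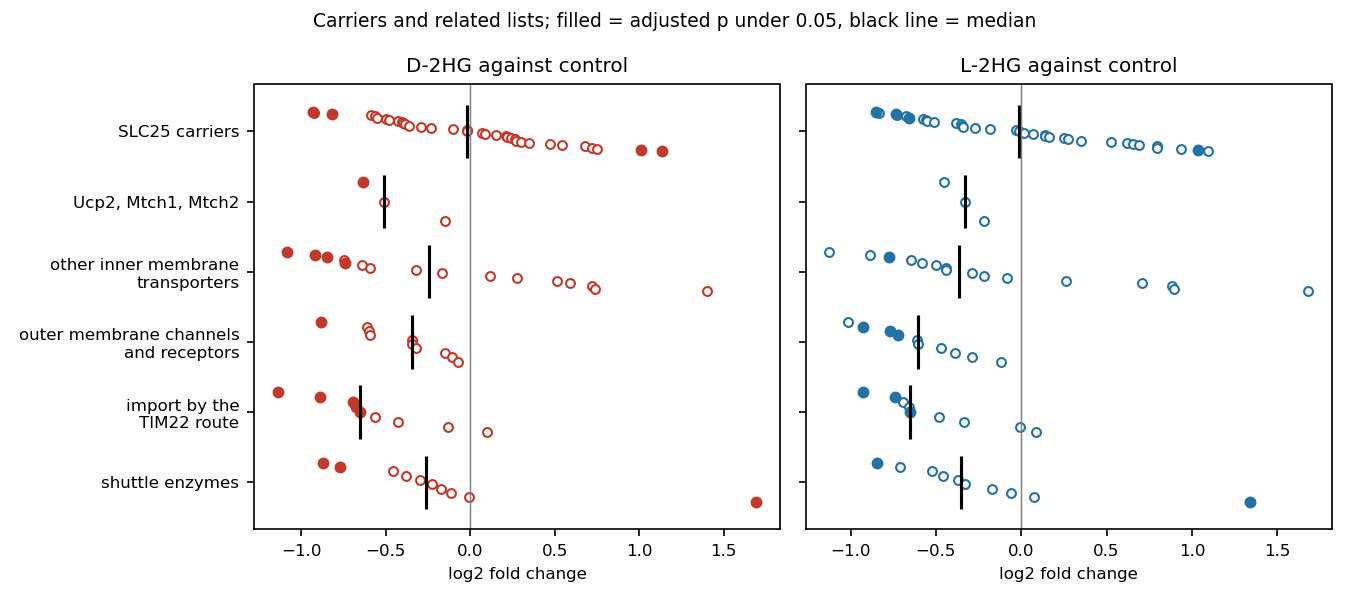
Log2 fold changes against control for the tested carriers and 5 related lists; each point is a gene, filled where the adjusted p was under 0.05, and the black line is the median. Medians lie at -0.02 and -0.01 for the carriers and at -0.65 with both compounds for the TIM22 import route.

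The genes whose log2 CPM over the 9 libraries was most like that of Slc25a4 were Atp5k, a subunit of ATP synthase, with Pearson's r = 0.99, then Tagln2, Ndufa7, a subunit of complex I, Rpf2 and Wdr83os, each with r = 0.98. These values describe 9 libraries that share groups, depth and satellite share.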

How the data were processed

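Polyadenylated RNA of 9 libraries was captured on beads, primed with oligo(dT), amplified by PCR and fragmented with Tn5, per the labels' protocols. Counts as deposited are whole read numbers for each gene symbol, made with STAR 2.7.3a and featureCounts on mm10, per the submitters' processing notes; settings, strand and annotation release are not given in the sources used here. A second deposited table holds signal values, the counts divided by 1 size factor per library, and served only for gene identifiers and biotypes. No depth beyond the gene counts is known, and reads without molecular identifiers are not independent molecules.

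The tests used edgeR 4.0.16 under R 4.3.3. Of 55011 genes, 10235 passed filterByExpr with the group factor and a minimum count of 10. CPM are counts over TMM-scaled totals, and RPKM divide these by exon length from GENCODE M21. Slc25a31 and Slc25a32 have 2 gene identifiers each in the deposited table and 1 row of counts. All libraries entered 1 robust quasi-likelihood model of the group means, with 6 residual degrees of freedom. P-values were adjusted by Benjamini-Hochberg over every tested gene, with a threshold of 0.05. Intervals are 95% and not adjusted. Background density came from 1692 of 1781 sensory receptor genes, without the 5% of highest density. Replicates of a group differed by 5.26 to 34.6 in chi-square per degree of freedom, more than counting error. The first RefSeq promoter entry per gene was used, for 36 of 47 carriers.

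Members, related lists and rules were chosen with earlier results of these data known. Named carriers were a fixed set of main transporters, those past the threshold, and the highest of each role. Slc25a17, Slc25a25, Slc25a26, Slc25a38, Slc25a42, Slc25a45, Slc25a47, Slc25a51 and the ratios were picked with their values in view. Alternatives were DESeq2 1.42.0, limma-voom (limma 3.58.1), other scalings and filters, a replicate block, a satellite covariate, background subtraction, the compared groups alone and leaving out each library. Leaving out D-2HG replicate 3 and L-2HG replicate 2 together was chosen after seeing the data. A carrier that the rule takes is not reported here. No raw reads were analysed here.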

Additional observations from a re-analysis of the deposited data

How the results depend on the processing

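With D-2HG, the 2 carriers called higher and 2 called lower became 1 higher with DESeq2, without a count filter or with background subtracted. DESeq2 and DESeq2 size factors added Slc25a17 to the 2 called lower with D-2HG. The calls became 8 higher and 11 lower with limma-voom, which called 54.9% of all genes, and 0 of each with the satellite covariate. With both libraries of highest satellite share left out, 0 were higher and 2 lower. Leaving out 1 library gave 0 to 4 higher and 0 to 7 lower. With L-2HG, the 1 higher and 3 lower became 7 and 10 with limma-voom, which called 50.6% of all genes. They became 2 and 1 with a mean count of at least 50. They became 0 and 0 with the satellite covariate, with background subtracted, with only the groups compared or without both libraries of highest satellite share. DESeq2 called 6 lower, DESeq2 size factors 5, library totals 1, and no count filter left 0 higher. Leaving out 1 library gave 0 to 5 higher and 0 to 8 lower. D-2HG against L-2HG gave 0 in each direction in all these fits, 0 to 0 when 1 library was left out. The cause of these shifts was not tested, except that filters and left-out libraries change the genes or samples in the fit. DESeq2 size factors moved the median of all genes with L-2HG from 0.05 to -0.05. Without 1 control, Slc25a5 made up 46.2 to 50.1% of carrier counts and averaged 2478 to 3164 CPM. Of 1122 values of 19 named carriers under alternatives, 0 reversed a call, 64 lost one and 28 gained one. Most of these values had no call to lose, as only carriers called in the main fit could lose one. With D-2HG, Slc25a4 kept its call in 18 of 20 alternatives, Slc25a36 in 15 of 20, Slc25a5 in 14 of 20 and Slc25a30 in 9 of 19. With L-2HG, Slc25a5 kept its call in 12 of 20, Slc25a36 in 11 of 20 and Slc25a4 in 8 of 20.

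Replicate numbers gave no clear sign of pairing: deviations of same-numbered libraries correlated from -0.17 to 0.28, and 2 of 9 were over 0.1. Those of differently numbered libraries correlated from -0.30 to 0.28. What the numbers stand for is not stated, so these values cannot exclude a pairing. The replicate block gave 2 higher and 2 lower with D-2HG, 2 higher and 3 lower with L-2HG, where Slc25a25 was added, and 0 between the enantiomers. Depth limits most the carriers of low count in L-2HG replicate 2.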
